A study of Mus musculus with 12 samples.

Results

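The genes described here are 45 interferon-stimulated genes, taken by name from the 23406 genes of a table of RNA levels in mouse mammospheres, and they comprise sensors, transcription factors, effectors and inhibitors. Mammospheres are floating spheres that mammary cells form in suspension culture, and here they were at passage 2. Donors were C57BL/6J mice of wild-type genotype (WT) or Shc1p66KO (KO, without p66Shc, the longest protein made from the Shc1 gene), each at 2 and 12 months of age. Each of the 4 groups, WT at 2 months, WT at 12 months, KO at 2 months and KO at 12 months, had 3 libraries of total RNA, and all mice shared the C57BL/6J background. Per the series' design text, spheres came from 3 young and 3 aged mice of each genotype, but the labels tie no library to a mouse, so each p-value measures the spread between these libraries. Levels are CPM, the reads of a gene relative to the scaled read total of its library, and the libraries held between 31845169 and 109079737 reads in genes. All 45 members passed the filter of a mean of at least 0.5 CPM, as did 13961 genes in all, and all 45 matched a gene model of GENCODE vM21 on the same chromosome and strand.

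Interferons are secreted proteins by which cells warn each other of virus or of misplaced nucleic acid. Type I interferons, such as interferon-beta, bind IFNAR1 and IFNAR2, and the kinases JAK1 and TYK2 then phosphorylate STAT factors such as STAT2, which join IRF9 into a complex that binds the interferon-stimulated response element (ISRE) in promoters. Type II interferon, interferon-gamma, signals through IFNGR1 and IFNGR2, JAK1 and JAK2 to STAT factors that bind the gamma-activated site (GAS). The genes so switched on include the sensors that start the pathway and the factors that carry it, so the pathway feeds on itself, and many of them are also kept at a low level by STAT and IRF factors in cells without added interferon.

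The promoter windows below are shown because they hold matches to the response elements described above. They come from members with large age differences in KO (Isg15, Rsad2, Oas3, Ifit1, Gbp2), with small ones (Irgm1, Socs1) and with a GAS (Igtp, Irf1). They were picked after the values were seen. Each is 60 bases of the gene's strand, 5′ to 3′, from RefSeq on GRCm38.p6, and the capitals mark matches to the ISRE core GAAANNGAAA, read on the other strand as TTTCNNTTTC, or to the GAS TTCNNNGAA, which reads the same on both strands.
Isg15, chr4:156200856-156200915, minus strand: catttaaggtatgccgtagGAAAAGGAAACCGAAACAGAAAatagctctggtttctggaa
Rsad2, chr12:26456538-26456597, minus strand: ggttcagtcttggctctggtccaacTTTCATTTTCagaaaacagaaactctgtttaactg
Oas3, chr5:120777700-120777759, minus strand: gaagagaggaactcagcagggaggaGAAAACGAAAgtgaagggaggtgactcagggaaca
Ifit1, chr19:34640769-34640828, plus strand: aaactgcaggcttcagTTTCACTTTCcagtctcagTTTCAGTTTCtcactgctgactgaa
Gbp2, chr3:142620579-142620638, plus strand: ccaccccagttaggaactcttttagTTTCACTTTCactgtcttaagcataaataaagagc
Irgm1, chr11:48871421-48871480, minus strand: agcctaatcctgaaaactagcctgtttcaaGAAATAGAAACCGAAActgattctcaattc
Socs1, chr16:10785582-10785641, minus strand: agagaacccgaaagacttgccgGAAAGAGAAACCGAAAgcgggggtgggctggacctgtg
Igtp, chr11:58199496-58199555, plus strand: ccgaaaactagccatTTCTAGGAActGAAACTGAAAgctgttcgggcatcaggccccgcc
Irf1, chr11:53769898-53769957, plus strand: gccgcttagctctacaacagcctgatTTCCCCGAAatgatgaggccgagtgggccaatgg
The Isg15 window holds 3 overlapping ISRE cores, those of Irgm1 and Socs1 hold 2 overlapping cores each, and that of Ifit1 holds 2 cores apart from each other. The Igtp window holds a GAS next to an ISRE core, and the Irf1 window a GAS alone.

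Promoter sequences of 300 bases, 250 before and 50 after the start site, were at hand for 35 of the 45 members. Counted by gene, the ISRE core lay in a promoter of 19 of these 35 (54.3%) and of 1079 of all 27025 genes with such sequences (3.99%), and the GAS in 9 of the 35 (25.7%) and in 2582 of the 27025 (9.55%). Counted by promoter, since some genes have several, the ISRE core lay in 20 of 40 of the members (50%) and in 1131 of 32851 in all (3.44%), and the GAS in 9 of 40 (22.5%) and in 2726 of 32851 (8.3%). Both motifs were found in 6 members and neither in 13, and an ISRE match can overlap another ISRE match. Oas2, Dhx58, Zbp1, Mx1, Mx2, Iigp1, Usp18, Parp9, Parp14 and Rtp4 were not searched. A match is a run of letters and not evidence that a factor bound there.

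**Figure D1:**
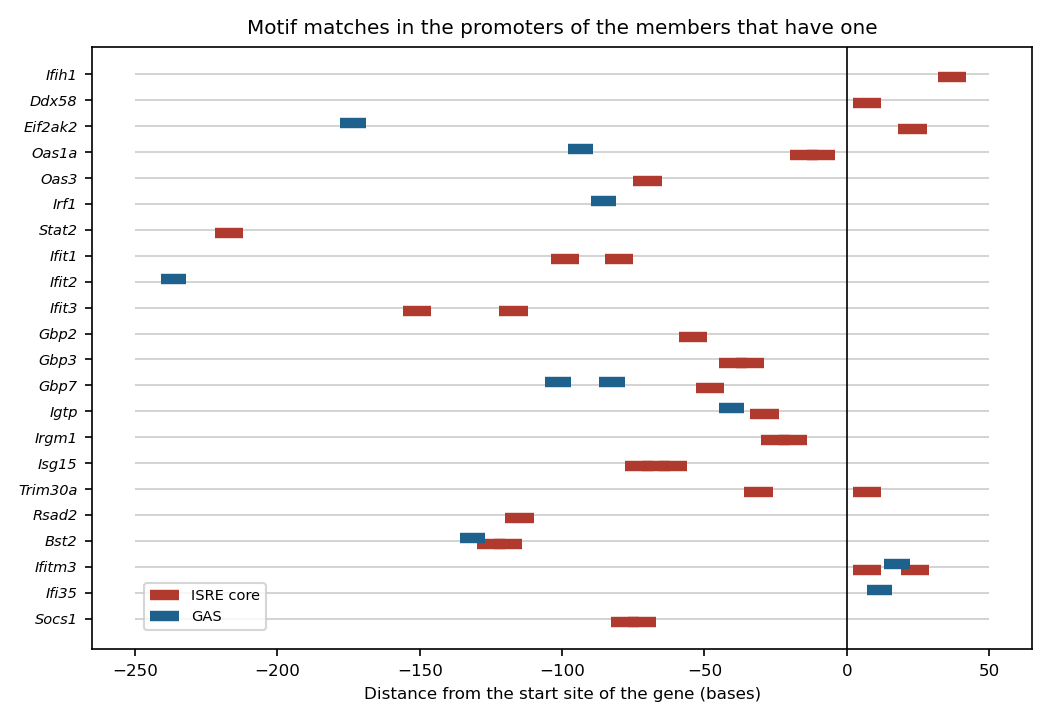
Matches to the ISRE core (red) and the GAS (blue) in promoters of members with at least 1 match, by distance in bases from the start site at 0. Each grey line spans 300 bases and stands for 1 member, and matches from several promoters of a member share its line. The 19 members with an ISRE core and the 9 with a GAS include 6 with both.

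In WT mammospheres most interferon-stimulated genes were lower at 12 than at 2 months, and in KO mammospheres nearly all were higher. With age in KO, 42 of the 45 members rose and none fell, all 45 differences lying above 0 in limma and in edgeR, with a median log2 difference of 1.20 and a range from 0.06 for Oasl1 to 2.82 for Zbp1. Of all genes tested, 32.9% rose and 34.2% fell in that comparison, with a median of -0.02. With age in WT, 30 members fell and 2 rose, with a median of -0.37, where 35.6% of all genes fell and 22.3% rose, with a median of -0.08. The share of members that fell in WT was thus 30 of 45 against 35.6% of all genes, and the share that rose in KO 42 of 45 against 32.9%. A call means an adjusted p under 0.05 in a limma fit of log2(CPM + 0.5) to all 12 libraries, and on that scale the difference of a gene at a low level comes out too small.

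Taken gene by gene, 28 members fell with age in WT and rose with age in KO. The other members fell into 4 patterns. Tlr3 and Dtx3l rose in both genotypes, Oasl1 and Socs1 fell in WT and were not called in KO, 12 rose in KO and were not called in WT, and Ifi35 was called in neither. The age difference in KO minus that in WT, the interaction, was called higher for 43 members and lower for 1, Tlr3, with a median of 1.60. Among all genes tested 31.4% were called higher and 26.2% lower in the interaction, with a median of 0.02.

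**Figure D2:**
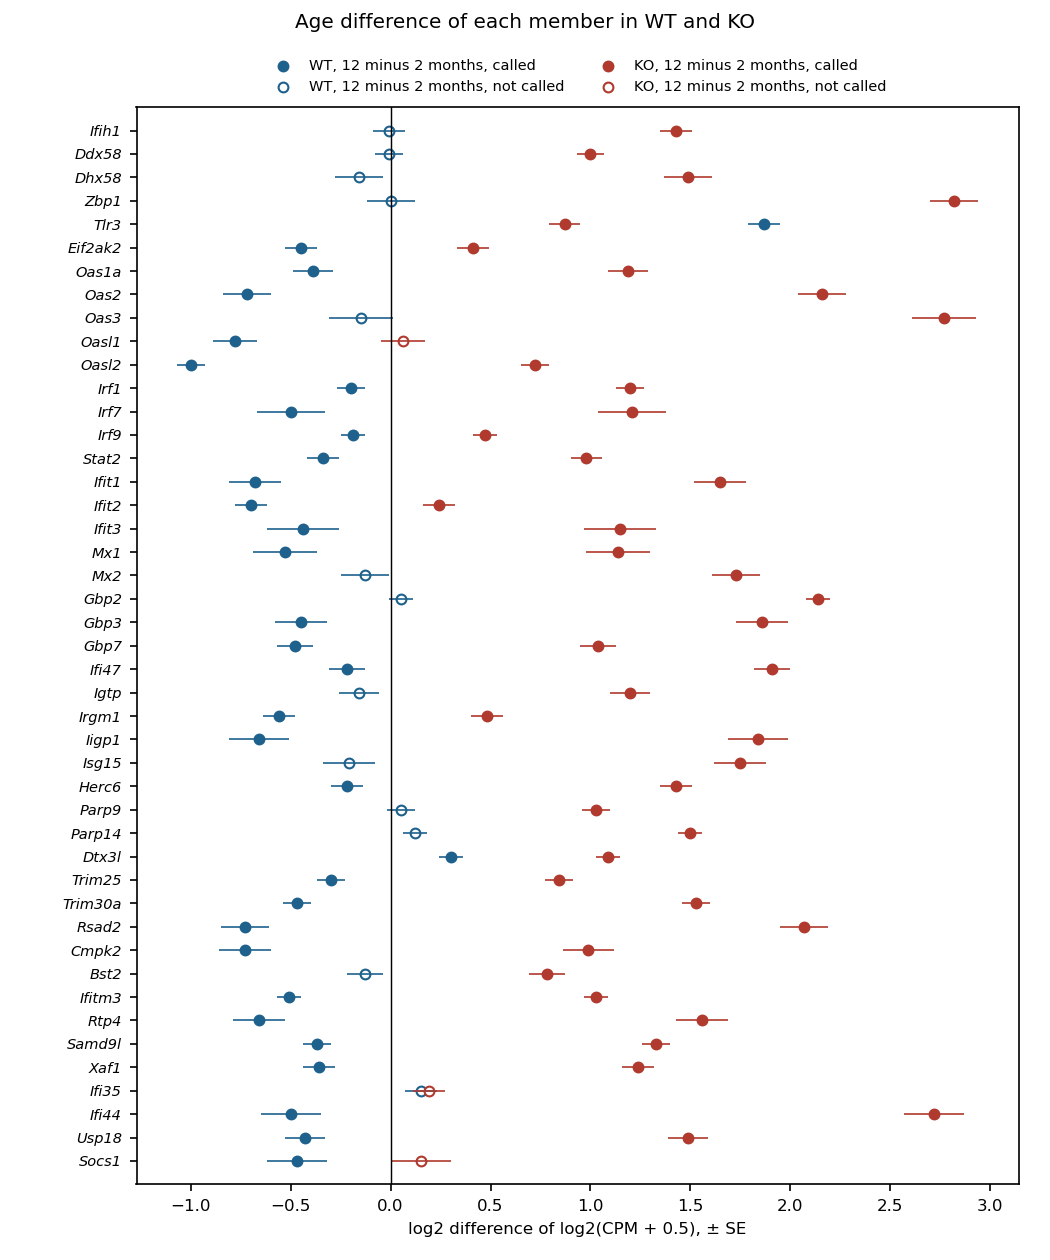
Log2 difference between 12 and 2 months for each of the 45 members in WT (blue) and KO (red), in units of log2(CPM + 0.5), with bars for the standard error; filled points were called at an adjusted p under 0.05 and open points were not. The KO points lie above 0 and to the right of the WT points for every member but Tlr3, and the 2 points of Ifi35 lie within their errors of each other.

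Between the genotypes, KO was above WT at 12 months in 43 of the 45 members and below it in Tlr3, while Ifi35 was not called. The median log2 difference was 1.31, in a comparison in which 31.3% of all genes were higher and 38.9% lower in KO. At 2 months the members lay the other way, with 25 lower in KO, none higher and 20 not called, all 45 differences lying below 0, and a median of -0.27, where 14.2% of all genes were lower and 1.86% higher. All 25 members that were lower in KO at 2 months were higher in KO at 12 months. The 2-month calls depended on the scaling. The deposited columns do not share 1 scaling run, and with scaling factors computed over all 12 libraries 10 of the 25 were called, with quantile scaling 4 and with edgeR on the recovered reads 9, while no member was called higher in any of the 3. Of all genes tested, 1032 of 13980, 799 of 13961 and 940 of 13961 were called lower under these scalings, in that order. Gbp2, Oasl1, Parp14 and Trim25 were called lower under all of these scalings, and 3, 8 and 3 members lay above 0, among them Ifit2, Mx2 and Tlr3 each time. The count of members was 13 without WT replicate 3 at 2 months, 14 without KO replicate 1 at 2 months and 16 without KO replicate 3 at 2 months. Of all 13961 genes, 1442, 1233 and 1297 were called lower in these runs.

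The mean log2(CPM + 0.5) over the 45 members gives a description of their joint level. It was 4.50, 4.36 and 4.59 in the WT libraries at 2 months, 4.12, 4.22 and 4.22 in WT at 12 months, 4.15, 4.20 and 4.26 in KO at 2 months, and 5.44, 5.53 and 5.50 in KO at 12 months. The 12-month KO libraries stood apart from the other 9, which spanned 4.12 to 4.59, and the 2-month KO and 12-month WT libraries overlapped. Group means were 4.48 ± 0.118, 4.18 ± 0.0598, 4.20 ± 0.0566 and 5.49 ± 0.0468 (SD, n = 3) in that order. In 38 of the 45 members all 3 libraries of 12-month KO lay above all 9 others, which 18.2% of the genes tested also did. The 7 members without that separation were Tlr3, Eif2ak2, Oasl1, Ifit2, Irgm1, Ifi35 and Socs1.

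**Figure D3:**
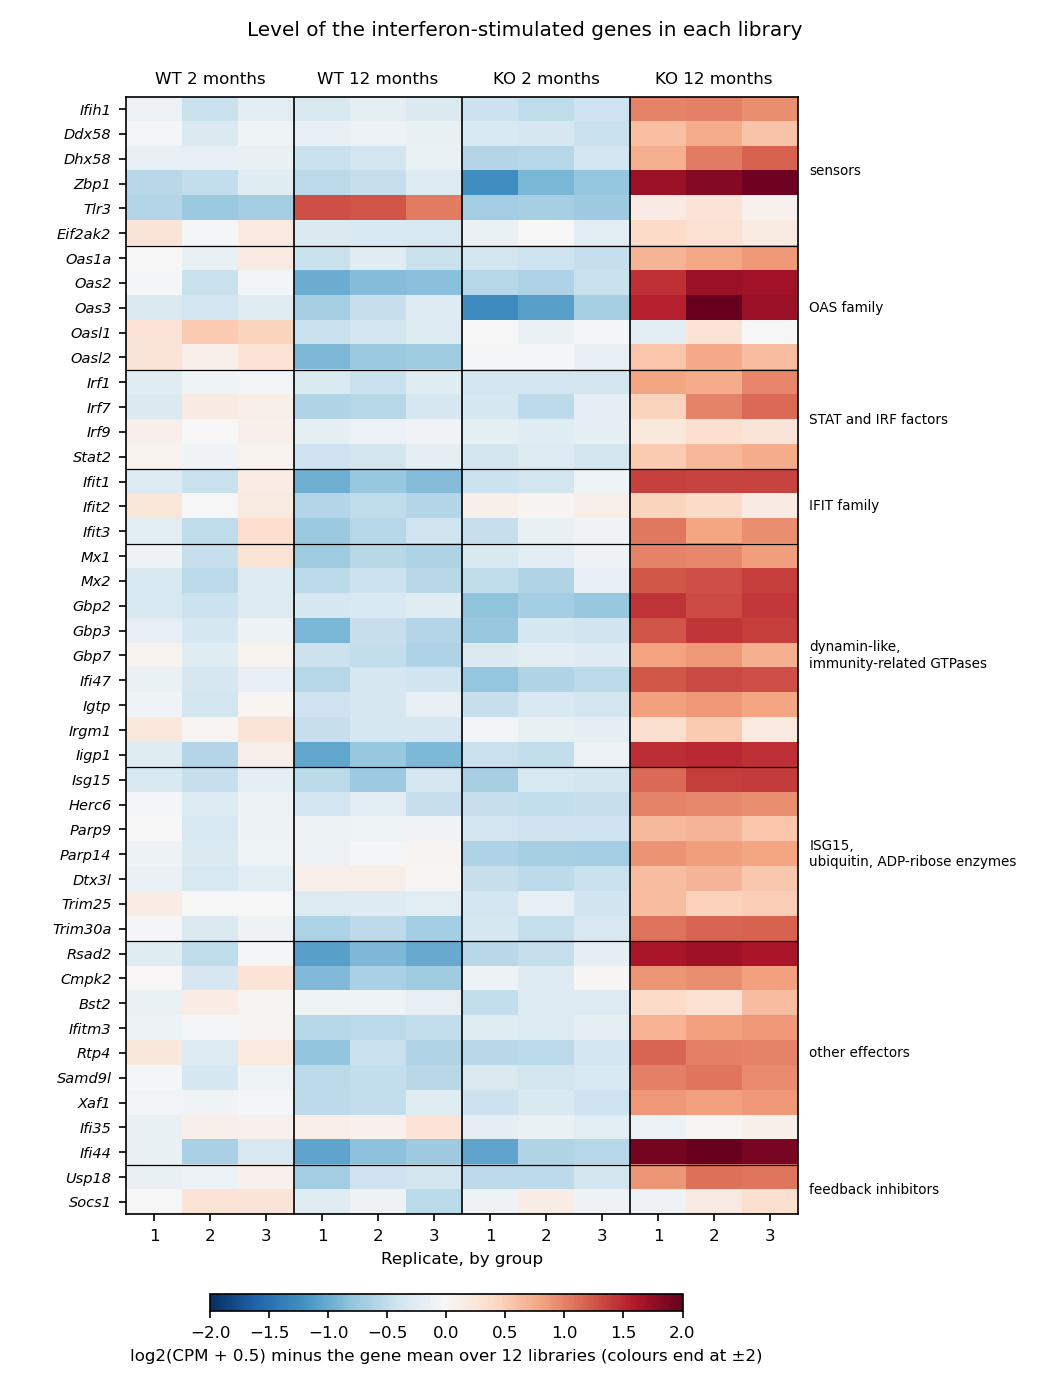
Level of the 45 members (rows, by role) in the 12 libraries (columns, by group), as log2(CPM + 0.5) minus the gene's mean over the 12 libraries; red is above and blue below that mean, and colours end at 2 on either side. The 3 columns of 12-month KO are red in most rows, while Tlr3 is highest in the 12-month WT columns.

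Cell type markers also differed between the groups, and their part in the results on the members was not tested. The levels of 8 general leukocyte genes summed to 78.9 to 124 CPM in 12-month KO, below the 176 to 187 of 12-month WT, the 209 to 259 of 2-month KO and the 223 to 271 of 2-month WT, and 0 rose and 7 fell of these 8 with age in KO. The 7 macrophage genes measured summed to 352 to 672 CPM in 12-month KO and to 923 to 1383 CPM in the other groups, a sum to which Lyz2 gave 177 to 1062 CPM. With age in KO 5 of the 7 fell, while Mrc1 and Cd14 rose by 0.86 and 1.04. Lymphocyte genes were near 0, with a sum over 10 genes of at most 0.726 CPM in any library, but their sum was higher in 12-month KO (0.406 to 0.726 CPM) than in the other groups (at most 0.302). Of 6 genes listed for plasmacytoid dendritic cells, which make much type I interferon, 4 were tested. Bst2 (itself a member), Ly6d and Cox6a2 rose with age in KO, and at 12 months Bst2, Tcf4 and Cox6a2 were higher and Ly6d lower in KO. Siglech, a defining marker of these cells, was at most 0.041 CPM and at 0 in 12-month KO. The T cell gene Cd3e was at 0 in all 9 libraries outside 12-month KO and at most 0.087 CPM there. Among the sums that were higher in all 3 libraries of 12-month KO than in the other 9 were those of mast cell genes (6 genes, 228 to 251 CPM against 123 to 136 in 12-month WT and 33 to 35.9 in 2-month KO) and of endothelial genes (7 genes, 284 to 305 CPM against 130 to 138 and 74.1 to 78.4). All 6 mast cell genes and all 7 endothelial genes rose with age in KO and were lower in KO at 2 months. At 12 months 5 of the 6 mast cell genes were higher in KO, and Kit was lower, with a log2 difference of -0.47 ± 0.07 (SE). Kit gave 82.3 to 84.8 CPM of the mast cell sum in 12-month WT. The 7 skeletal muscle genes summed to 910 to 1071 CPM in 2-month WT, 180 to 202 in 12-month WT, 255 to 308 in 2-month KO and 821 to 1545 in 12-month KO. Ttn alone gave 637 to 778 CPM in 2-month WT and 731 to 1389 in 12-month KO. Each of the other muscle genes had a lower mean in 12-month KO than in 2-month WT, such as Acta1 with 36.8 against 93.4 CPM. All 7 muscle genes fell with age in WT and 6 rose in KO, all 7 were lower in KO at 2 months and higher at 12 months, and their median interaction was 3.09. Genes listed as markers of cells other than epithelium had reads in every group, but the cell content of the spheres was not measured. The 8 fibroblast genes summed to 9464 to 9924 CPM in 2-month WT and 6049 to 6360 in 12-month WT. In KO their sum was 8991 to 9951 CPM at 2 months and 8394 to 9490 at 12 months. Dcn, Pdgfra and Pdgfrb fell with age in WT, rose in KO and were above the other 9 libraries in 12-month KO. Col1a1, Col3a1, Lum and Fbln1 fell in both genotypes, and Thy1 rose in both. In the interaction 6 of the 8 were higher and 2 lower. The 8 luminal epithelial genes summed to 3673 to 3797 CPM in 12-month WT and to 295 to 498 CPM in the other groups. All 6 genes of dividing cells fell with age in both genotypes. Of all genes tested, 32.9% rose and 34.2% fell with age in KO, and 22.3% rose and 35.6% fell in WT. Between genotypes, 1.86% were higher and 14.2% lower in KO at 2 months, and 31.3% were higher and 38.9% lower at 12 months. In the interaction 31.4% of all genes were higher and 26.2% lower. In such bulk samples, fewer cells of a type and less RNA per cell cannot be told apart. Shc1 reads come from all of its isoforms and check the labels only in part: the gene had 266, 311 and 310 CPM in WT and 208, 209 and 208 in KO at 2 months, and 220, 209 and 203 in WT and 170, 162 and 178 in KO at 12 months.

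The sensors recognise foreign or misplaced nucleic acid. All 6 rose with age in KO, and in WT 1 rose, 1 fell and 4 were not called. Zbp1, a sensor of Z-form nucleic acid that can start necroptosis, had the largest age difference in KO of all members. It was at 6.67, 7 and 8.46 CPM in 2-month WT, 6.81, 7.09 and 8.21 in 12-month WT, 3.98, 5.1 and 5.66 in 2-month KO, and 34.6, 37.3 and 40.1 in 12-month KO. The WT ages overlapped, and the KO ages were far apart, with a log2 difference of 2.82 ± 0.12 (SE, adjusted p = 5.78e-10, limma), or 7.04-fold, against 0.00 ± 0.12 in WT.

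Eif2ak2 encodes PKR, the kinase that halts translation on double-stranded RNA, and had the highest level per kilobase of transcript among the sensors. It was at 95, 77.6 and 91.1 CPM in 2-month WT, 64.9, 64.1 and 63.2 in 12-month WT, 72.4, 78.7 and 67.6 in 2-month KO, and 103, 98.1 and 89.4 in 12-month KO. The 12-month KO values overlapped those of 2-month WT, although the ages did not overlap within either genotype. The gene fell by 0.45 on the log2 scale with age in WT and rose by 0.41 in KO, each with an SE of 0.08 (adjusted p = 0.000308 and 0.000546, limma). The cytoplasmic RNA helicases Ifih1 (MDA5), Ddx58 (RIG-I) and Dhx58 (LGP2) rose by 1.43, 1.0 and 1.49 in KO, and none was called in WT, where the differences of Ifih1 and Ddx58 were -0.01 each and turned above 0 with other scalings.

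Tlr3, the endosomal receptor for double-stranded RNA, went against the other members. It was at 14.4, 12.8 and 13.3 CPM in 2-month WT, 53.7, 52.7 and 45.5 in 12-month WT, 13.2, 13.6 and 13 in 2-month KO, and 24.5, 26.4 and 23.1 in 12-month KO. The order was thus 12-month WT, 12-month KO and then both 2-month groups, which overlapped. It rose by 1.87 ± 0.08 with age in WT and by 0.87 ± 0.08 in KO, and at 12 months KO was 1.02 ± 0.08 below WT (SE, adjusted p = 8.66e-08, limma). The group in which Tlr3 was highest is the group with the highest sum of luminal genes, and the part of these cells in the level of Tlr3 was not tested.

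The OAS proteins make a nucleotide second messenger on double-stranded RNA, and the OASL proteins are their relatives. Of these 5 genes, 4 rose with age in KO, 4 fell in WT, and all 5 were higher in KO at 12 months. Oas3 had 4.46, 4.14 and 4.63 CPM in 2-month WT, 3.35, 3.9 and 4.58 in 12-month WT, 2.03, 2.35 and 3.34 in 2-month KO, and 17.3, 24.3 and 19.7 in 12-month KO. It was the member of this family with the largest interaction, 2.93 ± 0.23 (SE, adjusted p = 1.6e-07, limma), with a rise of 2.77 in KO and a difference of -0.15 in WT that was not called. Oas2 was close to it, with an interaction of 2.89 ± 0.17, a fall of 0.72 in WT and a rise of 2.16 in KO.

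Oasl1 stood at the other end of the family. Its protein is known to hold back translation of the Irf7 message. The levels were 20.4, 24.6 and 23.2 CPM in 2-month WT, 12.3, 12.9 and 13.8 in 12-month WT, 16.8, 15.4 and 16.4 in 2-month KO, and 14.3, 20.4 and 16.8 in 12-month KO. In KO the ages overlapped (log2 difference 0.06 ± 0.11, adjusted p = 0.634, limma), and an exact two-sided permutation test of 3 libraries against 3 gave p = 0.8, where 0.1 is the smallest possible. In WT it fell by 0.78 ± 0.11 (adjusted p = 4.39e-05, limma), and its interaction was 0.84 ± 0.16. Its neighbour Oasl2, beside it on chromosome 5, had the largest fall of all members in WT, -1.0 ± 0.07, and a rise in KO of 0.72 ± 0.07.

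All 4 STAT and IRF factors fell in WT and rose in KO, and all were higher in KO at 12 months. Irf7, the factor that amplifies type I interferon production, was at 21.4, 29.4 and 28.7 CPM in 2-month WT, 17.2, 17.6 and 20.7 in 12-month WT, 20.5, 18.1 and 23 in 2-month KO, and 35.9, 52.8 and 58.4 in 12-month KO. Its WT ages did not overlap but came close, and its spread was the widest of the 4 in 12-month KO. The interaction was 1.71 ± 0.24 (SE, adjusted p = 3.64e-05, limma).

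Irf1, a factor of both interferon responses and the gene with the GAS window above, was at 56.4, 63.2 and 64.4 CPM in 2-month WT, 54.6, 49 and 56.8 in 12-month WT, 51.6, 51.5 and 52.1 in 2-month KO, and 116, 113 and 132 in 12-month KO. The ages overlapped slightly in WT (log2 difference -0.20 ± 0.07) and lay apart in KO (1.20 ± 0.07, adjusted p = 1.18e-08, limma). Irf9, the DNA-binding part of the type I complex, changed least, from 37, 35.9 and 37.2 CPM to 49.2, 53.1 and 50.5 in KO and from 45.5, 42 and 45.5 to 37.3, 39 and 40.3 in WT. Its differences were 0.47 ± 0.06 in KO and -0.19 ± 0.06 in WT. The falls of Irf1 and Irf9 in WT were not called when scaling factors were computed over all 12 libraries, with quantile scaling or with edgeR on the recovered reads. Stat2, the STAT factor specific to the type I complex, fell by 0.34 ± 0.08 in WT and rose by 0.98 ± 0.08 in KO.

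The IFIT proteins bind foreign RNA and block its translation, and all 3 genes fell in WT and rose in KO. None was called between genotypes at 2 months. Ifit1 had 20.8, 18.3 and 27.8 CPM in 2-month WT, 12.5, 14.6 and 13.6 in 12-month WT, 18.5, 19.4 and 23.6 in 2-month KO, and 65.3, 64.8 and 65 in 12-month KO. The 12-month KO libraries agreed closely and stood above all others, with a rise of 1.65 ± 0.13 in KO (SE, adjusted p = 1.12e-07, limma) and a fall of 0.68 ± 0.13 in WT. Ifit2, its neighbour on chromosome 19, was at 68.6, 57.7 and 65.5 CPM in 2-month WT, 38.2, 40.5 and 38.4 in 12-month WT, 62.1, 60.3 and 62.8 in 2-month KO, and 78.8, 75.7 and 64.7 in 12-month KO. The group that stood apart for Ifit2 was 12-month WT, which was low, and the rise in KO was 0.24 ± 0.08 (adjusted p = 0.0163, limma). That rise was not called without KO replicate 2 at 2 months, or without KO replicate 1 or 2 at 12 months. Ifit3 had a rise in KO of 1.15 ± 0.18 and a fall in WT of 0.44 ± 0.18 (adjusted p = 0.0452, limma). That fall was not called with scaling factors over all 12 libraries, with edgeR, with no filter, with the 2 groups alone or without any 1 of 7 libraries, and it was -0.21 without WT replicate 3 at 2 months.

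**Figure D4:**
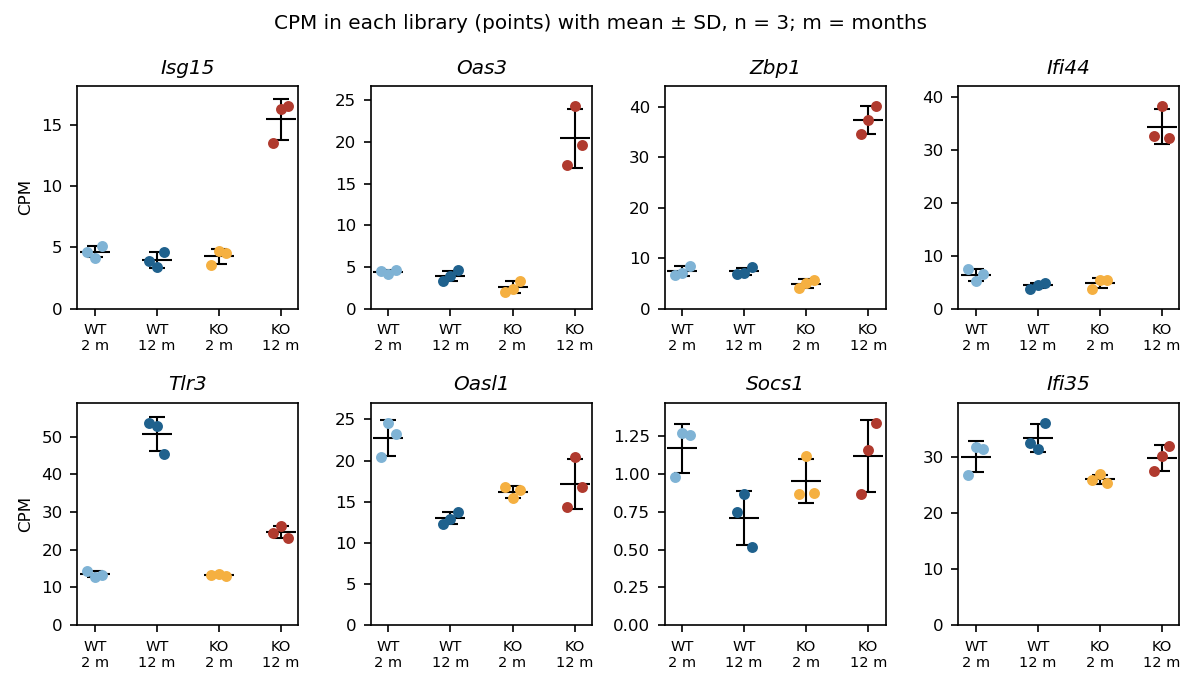
CPM of 8 members in each library (points) by genotype and age, with the mean and SD of 3 libraries (black); every axis starts at 0. In the upper row 12-month KO lies above all other libraries, and in the lower row Tlr3 is highest in 12-month WT while Oasl1, Socs1 and Ifi35 overlap between the KO ages or nearly so.

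The guanylate-binding and immunity-related GTPases among the members act on the vacuoles and membranes that hold pathogens, and many respond mainly to interferon-gamma. All 9 GTPase genes, with Mx1 and Mx2 among them, rose with age in KO, with a median of 1.73, and 6 fell in WT. Gbp2, a guanylate-binding protein with the highest level per kilobase of this group, was at 38.3, 35.4 and 39.5 CPM in 2-month WT, 37.7, 38.8 and 40.5 in 12-month WT, 27.3, 29.7 and 28 in 2-month KO, and 131, 119 and 129 in 12-month KO. The WT ages overlapped (0.05 ± 0.06, adjusted p = 0.528, limma), KO was lower than WT at 2 months without overlap (-0.41 ± 0.06), and the rise in KO was 2.14 ± 0.06, or 4.4-fold (adjusted p = 1.58e-11, limma).

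Iigp1, an immunity-related GTPase that damages parasite vacuoles, had 19.4, 15.2 and 25.1 CPM in 2-month WT, 11, 13.4 and 12.1 in 12-month WT, 16.7, 16.2 and 21.1 in 2-month KO, and 65.1, 66.5 and 64.3 in 12-month KO. It had the largest interaction of the group, 2.50 ± 0.21 (SE, adjusted p = 3.2e-07, limma), and its 2-month groups overlapped. Irgm1, a regulator that protects the cell's own membranes from the other GTPases, had the smallest. It was at 62.4, 55.4 and 64.5 CPM in 2-month WT, 39, 41.9 and 42.5 in 12-month WT, 51.7, 48.7 and 47.2 in 2-month KO, and 67.5, 77.4 and 61.6 in 12-month KO, so that 12-month KO overlapped 2-month WT. Its interaction was 1.03 ± 0.12. The rises in KO of the others were 1.86 for Gbp3, 1.04 for Gbp7, 1.91 for Ifi47, 1.20 for Igtp, 1.14 for Mx1 and 1.73 for Mx2. Mx1, whose product is defective in most laboratory strains including C57BL/6, was at most 2.78 CPM in any library.

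Of the genes of ISG15, ubiquitin and ADP-ribose transfer, all 7 rose with age in KO, while in WT 3 fell, 1 rose and 3 were not called. Isg15, the ubiquitin-like modifier and the gene with 3 overlapping ISRE cores, went from 3.57, 4.66 and 4.5 CPM to 13.5, 16.3 and 16.5 in KO, a difference of 1.75 ± 0.13 (SE, adjusted p = 7.27e-08, limma). In WT it was at 4.63, 4.16 and 5.09 CPM at 2 months and 3.91, 3.37 and 4.61 at 12 months, which overlap. Trim30a, a TRIM protein known to restrain inflammatory signalling, had the largest interaction of the group. Its levels were 49.3, 41.2 and 46.9 CPM in 2-month WT, 32.3, 35.1 and 31.4 in 12-month WT, 39.5, 36.2 and 40.2 in 2-month KO, and 108, 114 and 115 in 12-month KO, and the interaction was 2.00 ± 0.10 (adjusted p = 4.33e-09, limma).

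Parp9 and Dtx3l encode partners in 1 ubiquitin ligase complex, and their genes lie next to each other on chromosome 16 with overlapping ends. Parp9 was at 78.8, 62.9 and 73.7 CPM in 2-month WT, 73.1, 74 and 74.8 in 12-month WT, 60.2, 59.3 and 59.3 in 2-month KO, and 124, 127 and 116 in 12-month KO. Dtx3l was at 51.5, 45.2 and 49 CPM in 2-month WT, 60.6, 61.5 and 57.4 in 12-month WT, 41, 39.3 and 41.3 in 2-month KO, and 86.7, 90.9 and 82.6 in 12-month KO. Both rose in KO, by 1.03 ± 0.07 and 1.09 ± 0.06, and in WT Dtx3l rose by 0.30 ± 0.06 (adjusted p = 0.000768, limma) while Parp9 had 0.05 ± 0.07. The genes lie on opposite strands, and the strand setting of the counting is not given in the sources used here, so reads of the overlapping ends could not be assigned with certainty. Parp14, on the same chromosome, had -0.50 ± 0.06 between genotypes at 2 months and rose by 1.50 ± 0.06 with age in KO. Herc6, the mouse ligase for ISG15, and Trim25, an activator of RIG-I, rose by 1.43 and 0.84 in KO.

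Among the other effectors, 8 of 9 rose with age in KO and 7 fell in WT. Ifi44, a cytoplasmic protein of unsettled function, had the largest interaction of all 45 members, 3.21 ± 0.21 (SE, adjusted p = 4.01e-08, limma). It was at 7.43, 5.15 and 6.58 CPM in 2-month WT, 3.76, 4.47 and 4.81 in 12-month WT, 3.76, 5.33 and 5.45 in 2-month KO, and 32.6, 38.2 and 32.2 in 12-month KO, with KO 7.19-fold above WT at 12 months. Rsad2, or viperin, which makes a chain-terminating nucleotide, was next among these 9 effectors, with an interaction of 2.80 ± 0.16. Its gene adjoins Cmpk2, whose product supplies the nucleotide, and Cmpk2 had an interaction of 1.72 ± 0.19.

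Ifitm3, a membrane protein that blocks virus entry, had the highest level per kilobase of all members, 508 CPM per kilobase in 12-month KO. In libraries it was at 185, 196 and 206 CPM in 2-month WT, 133, 136 and 141 in 12-month WT, 167, 164 and 173 in 2-month KO, and 320, 351 and 362 in 12-month KO. None of the 4 groups overlapped, and the differences were -0.51 ± 0.06 in WT and 1.03 ± 0.06 in KO (SE, adjusted p = 3.74e-06 and 4.14e-09, limma). Ifi35 was the member with no call in any comparison of the limma fit to the deposited values, but some of its calls depended on the setting. It was at 26.8, 31.8 and 31.4 CPM in 2-month WT, 32.5, 31.5 and 36.1 in 12-month WT, 25.8, 26.9 and 25.3 in 2-month KO, and 27.4, 30.1 and 32 in 12-month KO. Its age difference in KO, 0.19 ± 0.08 with an adjusted p = 0.0519 (limma), was close to the threshold. The KO ages did not overlap, and the exact permutation p was 0.1, the smallest possible. That rise was called with quantile scaling, edgeR, the 2 groups alone, the replicate block and without some single libraries. With age in WT, Ifi35 was called higher with scaling factors over all 12 libraries, quantile scaling and edgeR. The interaction of Ifi35 was 0.04 ± 0.12. Bst2 (tetherin), Rtp4, Samd9l and Xaf1 rose in KO by 0.78, 1.56, 1.33 and 1.24.

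The 2 feedback inhibitors differed from each other. Usp18, which removes ISG15 from proteins and blocks the type I receptor, was at 30.3, 31 and 35.5 CPM in 2-month WT, 20.6, 25 and 26 in 12-month WT, 23.2, 23.3 and 26 in 2-month KO, and 62.3, 73 and 70.9 in 12-month KO. It rose by 1.49 ± 0.10 in KO and fell by 0.43 ± 0.10 in WT (SE, adjusted p = 2.03e-08 and 0.00185, limma). Socs1, the inhibitor of JAK kinases, stayed low, at 0.981, 1.27 and 1.26 CPM in 2-month WT, 0.747, 0.866 and 0.515 in 12-month WT, 0.865, 1.12 and 0.874 in 2-month KO, and 0.867, 1.16 and 1.34 in 12-month KO. The KO ages overlapped (0.15 ± 0.15, adjusted p = 0.383, limma; exact permutation p = 0.3). The promoter window of Socs1 above holds 2 ISRE cores.

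The responses of members with and without an ISRE core were set side by side. Of the 19 members with a core, 18 rose with age in KO, with a median of 1.19, and of the 16 searched members without one 14 rose, with a median of 1.04. The medians of the interaction were 1.55 and 1.50. No test was made of these differences.

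The interferons themselves were at or near the limit of detection. Of 21 ligand genes sought 19 were in the table, none passed the filter, and 10 had 0 reads in all 12 libraries, where a count of 0 allows up to 3 reads, or 0.029 to 0.0859 CPM depending on the library, for counting error only. Apart from Ifnz, no ligand had more than 4 reads in a library. Ifnb1, which encodes interferon-beta, was at 0, 0 and 0.021 CPM in 2-month WT, 0.016, 0 and 0.029 in 12-month WT, 0, 0.043 and 0 in 2-month KO, and 0.051, 0 and 0.039 in 12-month KO. A difference in Ifnb1 between the groups was not detectable at this depth.

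The receptor subunits gave calls in both directions. Of the 6 receptor genes, 2 rose and 1 fell with age in KO, where 32.9% and 34.2% of all genes did. In WT 2 rose and 3 fell, against 22.3% and 35.6% of all genes. At 12 months 4 were higher and 2 lower in KO, against 31.3% and 38.9%. In KO, Ifnar1 had a log2 difference of 0.03 ± 0.04 and Ifngr2 of -0.11 ± 0.06, neither called, while Ifnar2 rose by 0.41 ± 0.06 and Ifngr1 by 0.29 ± 0.05. In WT, Ifnar1 fell by 0.35 ± 0.04, Ifngr2 by 0.44 ± 0.06 and Ifngr1 by 0.17 ± 0.05, and Ifnar2 had 0.10 ± 0.06, not called. Ifnlr1, the subunit of the lambda interferon receptor that is found mainly in epithelium, was at 23.4, 21.7 and 24.4 CPM in 12-month WT and at 1.62 to 2.69 CPM in the 9 other libraries. Its difference of 3.04 ± 0.15 with age in WT (SE, adjusted p = 1.03e-09, limma) came in the group where luminal genes were also high, whose part was not tested.

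Of the 3 receptor kinases, 2 fell with age in WT, where 35.6% of all genes did. In KO 2 rose and 1 fell, against 32.9% and 34.2% of all genes. At 12 months 2 were higher and 1 lower in KO, against 31.3% and 38.9%. Jak1, the kinase shared by the type I and type II receptors, was at 576, 540 and 556 CPM in 2-month WT, 400, 376 and 402 in 12-month WT, 425, 438 and 423 in 2-month KO, and 893, 951 and 904 in 12-month KO. The 12-month KO libraries lay above all others, and the interaction was 1.60 ± 0.07 (SE, adjusted p = 8.5e-10, limma). Jak2 rose by 0.49 ± 0.06 in KO and fell by 0.35 ± 0.06 in WT. Tyk2, the other kinase of the type I receptor, fell by 0.33 ± 0.11 in KO, where it was at 28.4, 32.1 and 36.2 CPM at 12 months against 40.9, 39.1 and 41.7 at 2 months, without overlap.

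**Figure D5:**
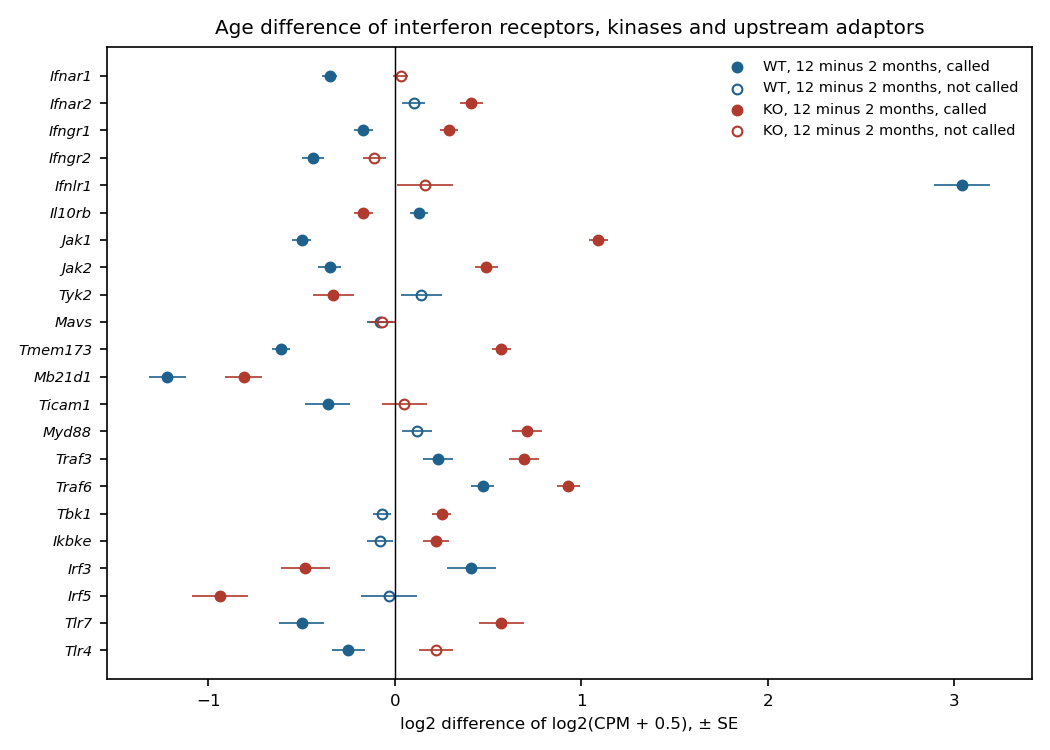
Log2 difference between 12 and 2 months in WT (blue) and KO (red) for 22 genes of interferon receptors, receptor kinases, and upstream adaptors and kinases, in units of log2(CPM + 0.5) with bars for the standard error; filled points were called at an adjusted p under 0.05. Jak1 is farthest right in KO, Ifnlr1 is farthest right in WT, and Mb21d1 lies left of 0 in both genotypes.

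Upstream of the interferons, 7 of 13 adaptors and kinases rose and 3 fell with age in KO, where 32.9% and 34.2% of all genes did. In WT 3 of the 13 rose and 5 fell, near the 22.3% and 35.6% of all genes. Tmem173 (STING), the adaptor for cytosolic DNA, was at 61.5, 65.5 and 66 CPM in 2-month WT, 43.8, 39.9 and 42.6 in 12-month WT, 61.9, 61.3 and 60 in 2-month KO, and 86.3, 93.6 and 92.2 in 12-month KO. The 2-month genotypes overlapped, and the interaction was 1.17 ± 0.08 (SE, adjusted p = 3.89e-08, limma). Mb21d1 (cGAS), the enzyme that makes the ligand of STING and a gene named after its values were seen, fell in both genotypes, by 1.22 ± 0.10 in WT and 0.81 ± 0.10 in KO. Tlr7, a receptor for single-stranded RNA, rose by 0.57 ± 0.12 in KO and fell by 0.50 ± 0.12 in WT, and Traf6, a ligase of Toll-like receptor signalling, rose in both, by 0.93 ± 0.06 and 0.47 ± 0.06.

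Of 6 other IRF genes and IRF2-binding partners, 4 rose and 2 fell with age in KO, where 32.9% and 34.2% of all genes did. In WT 2 rose and 2 fell, against 22.3% and 35.6% of all genes. Irf4, a lymphoid and myeloid factor, had an interaction of 2.23 ± 0.14, with a rise of 1.32 ± 0.10 in KO and a fall of 0.91 ± 0.10 in WT. Irf2, which competes with IRF1 for its sites, rose by 0.86 ± 0.13 in KO. Irf2bp1, which encodes a corepressor that binds IRF2, fell by 0.90 ± 0.14 in KO and had -0.03 ± 0.14 in WT, not called.

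Of 14 inhibitors of the pathway, 6 were higher and 6 lower with age in KO, where 32.9% and 34.2% of all genes were. In WT 5 were higher and 2 lower, against 22.3% and 35.6% of all genes. Socs3, an inhibitor of JAK kinases switched on by STAT3, was at 31.2, 34 and 34.2 CPM in 2-month KO and 120, 163 and 118 in 12-month KO, a difference of 1.98 ± 0.12 (SE, adjusted p = 1.25e-08, limma), against 0.04 ± 0.12 in WT. Tnfaip3 (A20), an inhibitor of NF-kappaB signalling, rose in both genotypes, by 2.69 ± 0.07 in KO and 1.21 ± 0.07 in WT. Ptpn6 (SHP-1), a phosphatase found mainly in blood cells, fell by 0.62 ± 0.11 in KO and rose by 0.77 ± 0.11 in WT.

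Genes that clear or edit nucleic acid showed 3 of 9 higher and 5 lower with age in KO, where 32.9% and 34.2% of all genes were, and 5 lower in WT, where 35.6% of all genes were. Samhd1, which depletes nucleotides, and Adar, which edits double-stranded RNA, rose by 0.62 ± 0.06 and 0.46 ± 0.06 in KO and fell by 0.31 ± 0.06 and 0.16 ± 0.06 in WT. Rnaseh2b, a subunit of the RNase H2 complex, which removes ribonucleotides from DNA, fell in both genotypes, by 0.58 ± 0.07 in KO and 0.26 ± 0.07 in WT.

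A list of 75 further interferon-stimulated genes was also counted. Of these 63 were tested, of which 53 rose and 3 fell with age in KO (median 0.87) and 9 rose and 31 fell in WT (median -0.24). Of all genes tested, 32.9% rose and 34.2% fell with age in KO, and 22.3% rose and 35.6% fell in WT. At 12 months 50 were higher and 4 lower in KO, where 31.3% and 38.9% of all genes were. At 2 months 1 was higher, Cxcl10, and 24 were lower, where 1.86% and 14.2% of all genes were. The 2-month count of this list is not given under the 3 other scalings. Those scalings cut the number of all genes called lower from 1986 to 1032, 799 and 940. Ifi205, of the family of DNA-binding HIN proteins, was at 37.3, 32.5 and 36.8 CPM in 2-month WT, 22.1, 25.2 and 24.1 in 12-month WT, 33.5, 31.9 and 30.5 in 2-month KO, and 196, 184 and 216 in 12-month KO. Its interaction was 3.18 ± 0.11 (SE, adjusted p = 1.7e-10, limma), and those of Ifi204, of the same family, and Slfn5, of the Schlafen family, were 2.12 ± 0.07 and 1.77 ± 0.07. Genes of the OAS, IFIT, GBP, immunity-related GTPase and HIN families have close copies, and how reads that map to several copies were counted is not given in the sources used here, so the split of reads within those families is uncertain.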

How the data were processed

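Total RNA of 12 mammosphere libraries was sequenced from TruSeq Stranded libraries, per the labels' protocols. Per the submitters' processing notes, the tools were TopHat2 2.1.0, Bowtie2 2.2.4, SAMtools 0.1.18 and HTSeq 0.6.1p1, with build mm10. The deposited signal values are CPM scaled by TMM in edgeR, per the file headers. Division by the CPM of 1 read gave whole reads, within 0.1, for 100% of the values above 0. The test was limma 3.58.1 under R 4.3.3, using a mean-variance trend, on log2(CPM + 0.5) of genes whose mean reached 0.5 CPM, and it had 4 group means and 8 residual degrees of freedom. Benjamini-Hochberg adjustment ran over all 13961 genes within each of 5 comparisons. The procedure was tested on simulated data in which few genes changed and all libraries shared 1 scaling run. That test does not bear on calls that depend on the scaling.

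The members and lists were chosen with earlier results of these data known. Library values are given, in each role, for the members with the highest level per kilobase and with the largest and smallest interaction, and for members that were not called, or were called against most, with age in KO or between genotypes at 12 months. Isg15 was added after its values were seen. Of each pathway list, up to 3 genes with the smallest interaction p are named, beside the receptors, Ifnb1 and Shc1. Some pathway genes are not reported here. Levels per kilobase use exon lengths of GENCODE vM21. Alternatives were other pseudocounts, filters and scalings, edgeR 4.0.16 on the recovered reads, the 2 groups alone, the replicate number as a block and leaving out each library.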

Additional observations from a re-analysis of the deposited data

Results flagged for a closer look

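The age difference in KO differed from that in WT, by the interaction term of the limma fit at an adjusted p under 0.05, for 44 of the 45 members. The values are the age difference in KO minus that in WT on the log2 scale. Among sensors they were 1.43 for Ifih1, 1.01 for Ddx58, 1.65 for Dhx58, 2.81 for Zbp1, -1.0 for Tlr3 and 0.86 for Eif2ak2. In the OAS family they were 1.58 for Oas1a, 2.89 for Oas2, 2.93 for Oas3, 0.84 for Oasl1 and 1.72 for Oasl2. Among factors they were 1.40 for Irf1, 1.71 for Irf7, 0.65 for Irf9 and 1.32 for Stat2, and in the IFIT family 2.33 for Ifit1, 0.94 for Ifit2 and 1.59 for Ifit3.

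GTPases had values of 1.67 for Mx1, 1.86 for Mx2, 2.09 for Gbp2, 2.31 for Gbp3, 1.53 for Gbp7, 2.14 for Ifi47, 1.36 for Igtp, 1.03 for Irgm1 and 2.50 for Iigp1. Genes of ISG15, ubiquitin and ADP-ribose transfer had 1.96 for Isg15, 1.65 for Herc6, 0.98 for Parp9, 1.37 for Parp14, 0.79 for Dtx3l, 1.14 for Trim25 and 2.00 for Trim30a. Other effectors had 2.80 for Rsad2, 1.72 for Cmpk2, 0.91 for Bst2, 1.55 for Ifitm3, 2.22 for Rtp4, 1.70 for Samd9l, 1.60 for Xaf1 and 3.21 for Ifi44. The feedback inhibitors had 1.92 for Usp18 and 0.63 for Socs1.

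The same term was past the threshold for 23 named genes of the pathway. Apart from Ifnar2 and Ifngr2, they were named for an interaction p among the 3 smallest of their list. The count is therefore not a result about the pathway. Among all genes tested 31.4% were called higher and 26.2% lower in the interaction. Receptors had 0.38 for Ifnar1, 0.31 for Ifnar2, 0.47 for Ifngr1, 0.33 for Ifngr2 and -2.88 for Ifnlr1. Receptor kinases had 1.60 for Jak1, 0.84 for Jak2 and -0.48 for Tyk2. Upstream genes had 1.17 for Tmem173, 1.08 for Tlr7 and 0.46 for Traf6, and other IRF genes 0.82 for Irf2, 2.23 for Irf4 and -0.87 for Irf2bp1. Inhibitors had 1.48 for Tnfaip3, 1.94 for Socs3 and -1.38 for Ptpn6, genes of nucleic acid clearance 0.93 for Samhd1, 0.61 for Adar and -0.32 for Rnaseh2b, and other interferon-stimulated genes 3.18 for Ifi205, 2.12 for Ifi204 and 1.77 for Slfn5.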

How the results depend on the processing

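Directions of called values did not reverse under any alternative run. With TMM factors over all 12 libraries, quantile scaling or edgeR on recovered reads, 4 members in each rose with age in WT (2 in the report, with Ifi35 and Parp14 added), and 10, 4 and 9 were lower in KO at 2 months (25 in the report). Under the first and the last of these 25 members fell with age in WT (30 in the report), without Herc6, Ifi47, Ifit3, Irf1 and Irf9. Leaving out 1 library gave 13 to 28 members lower in KO at 2 months and 23 to 30 lower with age in WT. It gave 41 to 43 higher with age in KO, and 42 to 43 higher both in KO at 12 months and in the interaction. Quantile scaling moved the median of all genes by 0.107 between genotypes at 2 months and 0.162 at 12 months (log2). Of all calls between genotypes at 2 months 11.5% were higher in KO, against 29.2%, 39.6% and 33.5% under those 3 settings, and the numbers called lower were 1986 against 1032, 799 and 940, and called higher 259 against 426, 523 and 474. With age in WT 38.6% of calls were higher, against 50.9% with edgeR. Replicate numbers were not taken as pairs, since no label ties them to a shared animal, batch or day. The correlation of deviations was over 0.1 in 8 of 18 same-numbered pairs of libraries (range -0.163 to 0.589). A smaller share of the differently numbered pairs passed 0.1. That 8 of 12 libraries were closest to their own number is a hint of shared structure from the data, not from the design. With the replicate number as a block, 2 members rose and 30 fell with age in WT, 43 rose in KO, 26 were lower in KO at 2 months, and 43 were higher and 1 lower both in KO at 12 months and in the interaction. Mx1 and Socs1 were not tested with a filter of 2 CPM. The depth limits the interferon genes, where no group difference was detectable.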
